A study of Mus musculus with 14 samples.

Results

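The 8 trophoblast lineage markers *Cdx2*, *Tead4*, *Gata3*, *Gata2*, *Elf5*, *Hand1*, *Esx1* and *Krt7* were followed across mouse embryonic stem (ES) cell lines that differ in their sex chromosomes. They were taken by name, and all 8 were found among the 23298 genes measured. Sequencing covered 14 lines, namely 3 BC XX, 3 BC XY, 2 BC XO, 3 CB XX and 3 CB XY lines. BC lines came from C57BL/6J mothers and CAST/EiJ fathers and CB lines from the reciprocal mating, so every line is an F1 hybrid and no CB XO line was included. Each line was started from its own blastocyst and kept with serum and LIF on feeder fibroblasts (MEFs), which were depleted in consecutive steps before RNA was isolated, and replicates are therefore separate lines.

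The trophectoderm is the outer layer of the blastocyst and gives rise to the trophoblast of the placenta, while ES cells are taken from the inner cell mass. Where Hippo signalling is low, *Yap1* enters the nucleus and acts with *Tead4* to switch on *Cdx2* and *Gata3*, and *Elf5* and *Eomes* then help to keep trophoblast stem cells in their state. *Hand1*, *Gata2* and *Esx1* belong to later trophoblast such as giant cells and labyrinth, and *Krt7* is a keratin of trophoblast and other simple epithelia. ES cells normally hold these genes at a low level, and several of them also serve other tissues, among them *Cdx2* in the posterior embryo and *Hand1* and *Gata2* in mesoderm.

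Each value is a number of reads that the authors had brought to the same depth in all lines, and between 98.0% and 98.5% of low values in a line were whole multiples of 1 step. A step was taken as 1 sequencing read, although the remaining values did not come out whole, and the lines then held from 11904424 reads in CB XY 2 to 69646376 in BC XX 2, and the value of 3 reads, under which a gene cannot be told from 0, ranged from 1.22 to 7.37. *Pou5f1*, a defining ES cell gene, had values from 10830 to 29386, and none of 10 ES cell markers was at 0 in any line. The Y-linked gene *Uty* reached 945 to 2088 in the BC XY lines and 1149 in CB XY 1 but only 19.6 in the line labelled CB XY 2 and 45.4 in CB XY 3, against 12.8 to 195 in XX lines. *Ddx3y* was 1115 to 2268 in BC XY lines, 1084 in CB XY 1, 27.0 in CB XY 2 and 126 in CB XY 3. In XX lines it was 49.7 to 1024. *Eif2s3y* and *Kdm5d* did not separate the labels. In BC XX and BC XY lines *Eif2s3y* was 102 to 317 and 40.8 to 255, and *Kdm5d* 36.9 to 123 and 6.02 to 28.7. The source of Y-linked RNA in XX lines was not tested. Results that rest on CB XY 2 and CB XY 3, low in *Uty* and *Ddx3y*, are therefore given with and without them. Without them CB XY 1 is the only CB XY line, and comparisons with it take their spread from the other groups on the assumption that it varies as they do. Fibroblast RNA was unequal, since the mean log2(value + 5) of 25 fibroblast genes was 10.3 to 11.4 in the BC XX lines and 7.88 to 9.66 in the other 11 lines. These ranges do not overlap, so in any comparison with BC XX the fibroblast level and the group cannot be told apart.

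Levels per kilobase of the longest coding transcript differed widely between the markers. *Tead4* had the highest level at 304 ± 130 (SD, n = 14) and stood above every other marker in all 14 lines. *Cdx2* followed at 56.3 ± 40.2 and *Gata2* at 50.6 ± 22.2, and these neighbours did not differ beyond their spread, since *Cdx2* was the higher of the pair in only 6 of 14 lines. *Krt7* at 22.5 ± 14.5, *Esx1* at 20.5 ± 9.61 and *Gata3* at 15.7 ± 5.66 formed a middle set whose order was not stable either, since *Krt7* exceeded *Esx1*, and *Esx1* exceeded *Gata3*, in 8 of 14 lines each. *Hand1* at 9.86 ± 8.16 lay below *Gata3* in 12 of 14 lines, and *Elf5* at 2.97 ± 1.85 was the lowest and lay below *Hand1* in 12 of 14. The largest spread belonged to *Cdx2*, whose highest line held 16.8 times the value of its lowest, and the smallest to *Gata2* at 3.37 times.

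**Figure D1:**
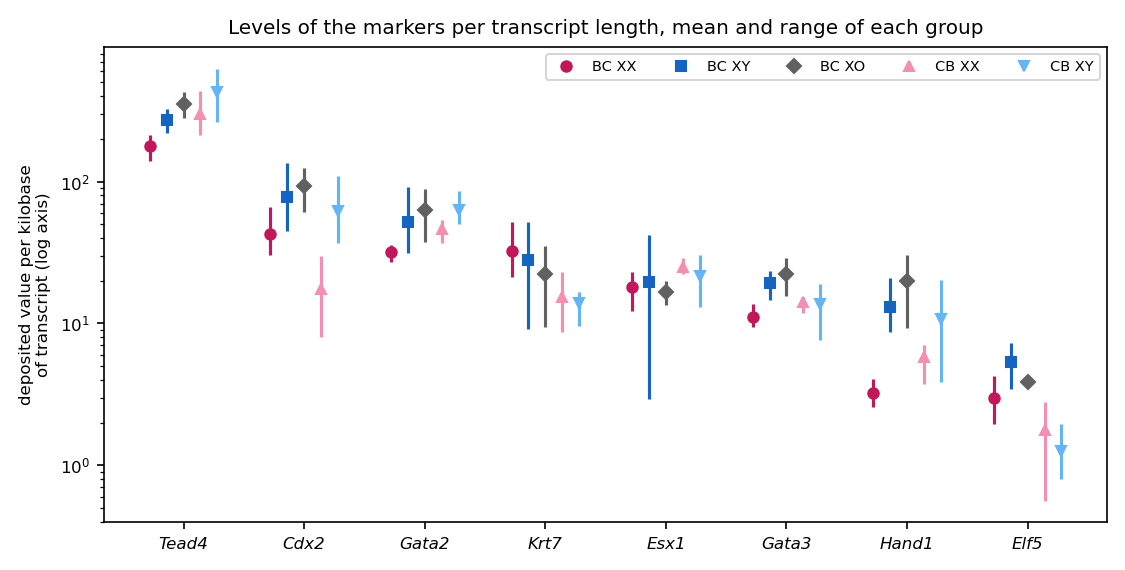
Deposited value per kilobase of the longest coding transcript on a log axis for the 8 markers, with the symbol at the mean of each group and the line from its lowest to its highest ES cell line. *Tead4* is the highest marker and *Elf5* the lowest in the mean of every group, while *Cdx2* and *Gata2* overlap.

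XX and XY lines were compared to ask whether trophoblast regulators differ with the sex chromosomes before differentiation. None of the 7 markers that passed the filter on low values was called between the 6 XX and the 6 XY lines, while 5.21% of 15311 genes were (limma on log2(value + 5), Benjamini-Hochberg adjusted p under 0.05). At an unadjusted p under 0.05, *Cdx2* and *Hand1* passed, 2 of 7 markers against 23.1% of all genes. *Cdx2* had a mean value of 67.9 ± 45.9 (SD, n = 6) in XX and 159 ± 94.8 in XY lines, a log2 difference of -1.23 (SE 0.44, limma adjusted p = 0.117). *Hand1* had a mean of 8.58 ± 3.52 in XX and 22.7 ± 13.2 in XY lines, a log2 difference of -0.93 (SE 0.31, limma adjusted p = 0.0968). The median log2 difference over the 7 markers was -0.46, with 5 negative and 2 positive, and over all genes it was -0.03. No marker separated the 6 XX from the 6 XY lines without overlap, whereas 3.52% of all genes did.

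Whether *Hand1* was called depended on CB XY 2, and no marker was called on omission of CB XY 3 alone. The log2 difference of *Hand1* stayed between -1.13 and -0.76 with each of 12 lines left out in turn. *Uty* was low in CB XY 2, which also had the fewest reads of all lines and 3 reads of *Hand1*. Which of these mattered was not tested. On omission of CB XY 2 alone the log2 difference of *Hand1* was -1.13 (limma adjusted p = 0.0477), and without CB XY 2 and CB XY 3 together it was -1.26 (limma adjusted p = 0.0491), so that 1 of 7 markers was then called, against 2.01% of 15557 genes. *Cdx2* without both lines differed by -1.55 (limma adjusted p = 0.133). The other markers tested gave log2 differences without them of -0.55 for *Gata3*, -0.26 for *Tead4*, 0.55 for *Esx1*, -0.0080 for *Krt7* and -0.32 for *Gata2*, none of which was called.

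**Figure D2:**
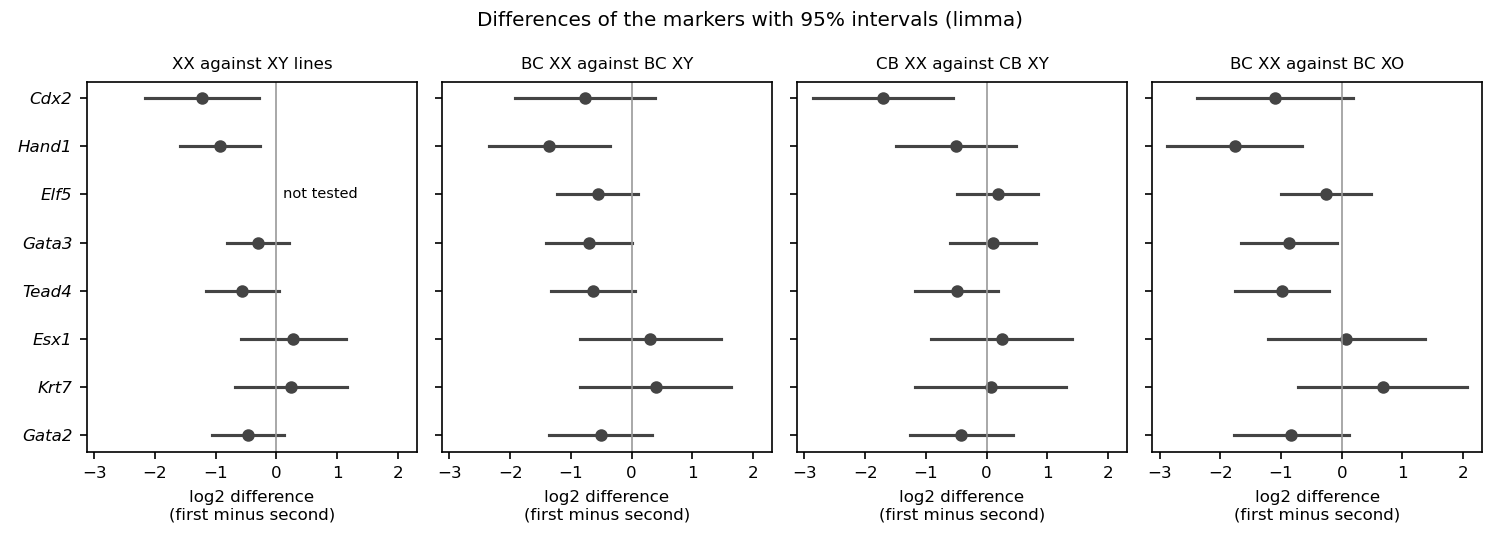
Log2 differences, first group minus second, of the 8 markers in 4 comparisons, with points at the limma estimate and bars over 95% intervals before adjustment. Points for *Cdx2* and *Hand1* lie left of 0 in all 4 panels, and *Elf5* was below the filter for the pooled XX and XY lines.

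Within the BC cross, where fibroblast RNA was highest in the XX lines, none of the 8 markers was called in BC XX against BC XY, while 5.70% of 16261 genes were. At an unadjusted p under 0.05 *Hand1* and *Gata3* passed, 2 of 8 against 23.1% of genes. *Hand1*, *Gata3* and *Tead4* were below the BC XY range in every BC XX line, 3 of 8 markers against 12.5% of all genes. Within the CB cross none was called, against 3.57% of genes, and only *Cdx2* passed at an unadjusted p under 0.05, where 18.6% of genes did. *Cdx2* was also the 1 of 8 markers with every CB XX line below every CB XY line, a pattern of 11.5% of genes. The interaction of sex and cross called no marker (0.0738% of genes), with limma adjusted p values from 0.653 to 0.991, and it had none at an unadjusted p under 0.05 (9.05% of genes). A difference between the crosses in the effect of sex was therefore not shown for any marker.

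XO lines allow the second X chromosome to be compared without a Y chromosome. Fibroblast RNA differed as well, with summed values of 110909 to 216503 in BC XX and 29462 to 30978 in BC XO lines. Effects of the second X chromosome and of feeder RNA therefore cannot be told apart here. None of the 8 markers was called in BC XX against BC XO, while 4.66% of genes were, and 3 of 8 passed at an unadjusted p under 0.05 against 23.7% of genes. *Hand1*, *Gata3*, *Tead4* and *Gata2* were lower in every BC XX line than in both BC XO lines, 4 of 8 markers against 23.5% of genes. BC XO and BC XY lines overlapped for all 8 markers, where 17.6% of genes did not, and the log2 differences ran from -0.29 to 0.41 (limma adjusted p = 0.999 for each). In that comparison 0.00615% of genes were called and no marker had an unadjusted p under 0.05, which 1.49% of genes had. These comparisons share lines, so they are not independent of each other.

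*Cdx2*, the homeobox factor that specifies trophectoderm, lies on the minus strand at chr5:148112381-148118846 (NCBIM37, mm9). Its values were 151, 69.6 and 68.8 in the BC XX lines, 307, 101 and 122 in the BC XY lines, and 284 and 138 in the BC XO lines. In the CB cross they were 32.7, 18.3 and 67.5 in the XX lines and 248, 83.5 and 92.2 in the lines labelled XY. BC XX 1 lay within the range of the BC XY lines, but every CB XX line was below every CB XY line. The log2 difference was -1.70 (SE 0.54, limma adjusted p = 0.103) for CB XX against CB XY, and -2.67 (limma adjusted p = 0.126) against CB XY 1 alone, a value with no replicate in that arm. It was -0.76 (SE 0.54, limma adjusted p = 0.428) for BC XX against BC XY and -1.10 (SE 0.60, limma adjusted p = 0.286) for BC XX against BC XO. No marker was called between the XX lines of the crosses, where 7.15% of genes were, and 2 of 8, *Cdx2* and *Tead4*, had an unadjusted p under 0.05 against 26.5% of genes. For 1 of 8 markers, *Cdx2*, every BC XX line was above every CB XX line, by a narrow gap, near the 14.2% of genes with that pattern. For 1 of 8, *Gata2*, every BC XX line was below every CB XX line, against 12.6% of genes. The log2 difference of *Cdx2* was 1.25 (SE 0.54, limma adjusted p = 0.157).

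*Cdx2* varied together with genes of the primitive streak and mesoderm. Over 14 lines its log2 value correlated with the mean of 12 such genes at Pearson r = 0.915 (two-sided permutation p = 2e-05, adjusted p = 0.00048 over 24 relations) and Spearman rho = 0.873 (permutation p = 8e-05, adjusted p = 0.00192). On leaving out the 2 lines at the greatest distance from the median of the streak genes r was 0.834, and it was 0.796 for deviations from group means. The relation to 8 genes of simple epithelium was weaker on removal of such lines, with r = 0.820 (permutation p = 0.00052, adjusted p = 0.00544) and rho = 0.824 (permutation p = 0.00047, adjusted p = 0.00376) over all lines but r = 0.548 without 2 of them. Of 16260 other genes the most alike in pattern were *Arsi* (r = 0.936), *Greb1* (r = 0.931) and *Wnt3* (r = 0.927), the last a signal needed for the primitive streak.

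Of the 10 streak genes tested between XX and XY lines, 2 were called. *Cdx1*, a homeobox relative of *Cdx2*, and *Wnt3* were lower in XX than in XY lines, with log2 differences of -1.66 (SE 0.32, limma adjusted p = 0.0110) and -1.68 (SE 0.43, limma adjusted p = 0.0361), and none was higher, against 1.99% of all genes called lower. The same 2 genes were called when CB XY 2 and CB XY 3 were left out. *Cdx1* had values of 7.31 to 32.7 in XX lines and of 36.6 to 116 in XY lines, so that its groups did not overlap, as for 1.23% of all genes in that direction.

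Promoters are shown for *Cdx2* and for *Gata3* and *Gata2*, since the last 2 are the markers with an entry in the RefSeq promoter table (GRCm38.p6) that varied together with *Hand1* and *Tead4* respectively. Each run is the 250 bases before the annotated start, 5′ to 3′ on the strand of the gene, at chr5:147307250-147307499 (minus) for *Cdx2*, chr2:9878601-9878850 (minus) for *Gata3* and chr6:88198414-88198663 (plus, the second of 2 starts) for *Gata2*. Capitals mark matches, on either strand and none overlapping another, to short motifs of the TEAD, GATA, CDX and ETS factor families that the markers belong to.
Cdx2: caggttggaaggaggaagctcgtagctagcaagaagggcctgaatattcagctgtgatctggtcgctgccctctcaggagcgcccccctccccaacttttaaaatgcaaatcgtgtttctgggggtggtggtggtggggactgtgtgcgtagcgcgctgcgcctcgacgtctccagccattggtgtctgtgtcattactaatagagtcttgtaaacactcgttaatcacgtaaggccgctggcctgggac
Gata3: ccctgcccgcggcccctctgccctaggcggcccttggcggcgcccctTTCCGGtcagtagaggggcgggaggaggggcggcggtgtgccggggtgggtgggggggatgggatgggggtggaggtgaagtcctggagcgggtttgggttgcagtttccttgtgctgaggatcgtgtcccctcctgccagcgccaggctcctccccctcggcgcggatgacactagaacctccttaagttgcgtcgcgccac
Gata2: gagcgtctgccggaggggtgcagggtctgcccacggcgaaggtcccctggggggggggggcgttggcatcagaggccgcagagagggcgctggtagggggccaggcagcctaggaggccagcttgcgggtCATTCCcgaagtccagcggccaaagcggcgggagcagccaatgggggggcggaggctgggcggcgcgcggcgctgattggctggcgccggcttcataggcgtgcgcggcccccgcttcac
Such windows were searched at 32851 annotated promoters. The TEAD motif GGAATG was found in 12.6% of them and the GATA motif AGATAA in 9.99%. Windows with the CDX motif TTTATG made up 10.8% and those with the ETS motif CCGGAA made up 12%. *Gata3* had 1 ETS match and this *Gata2* start 1 TEAD match, while the other *Gata2* start (chr6:88193641-88193890) and the *Cdx2* window had none. GC content was 55.2% for *Cdx2*, 70.0% for *Gata3* and 74.0% for *Gata2* against a median of 52.4% over all promoters, and the windows held 13, 19 and 24 CpG sites against a median of 6. A match describes letters only.

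*Tead4*, the DNA-binding partner of *Yap1* that acts upstream of *Cdx2*, lies on the minus strand at chr6:128174306-128250841 (mm9). Its values were 656, 551 and 426 in the BC XX lines, 681, 847 and 997 in the BC XY lines, and 1326 and 858 in the BC XO lines. The CB XX lines had 1347, 783 and 655 and the CB XY lines 814, 1926 and 1239.7. Every BC XX line was therefore below every BC XY and BC XO line, while the CB groups overlapped. The log2 difference was -0.63 (SE 0.32, limma adjusted p = 0.265) for BC XX against BC XY, -0.99 (SE 0.36, limma adjusted p = 0.117) for BC XX against BC XO and -0.49 (SE 0.32, limma adjusted p = 0.441) for CB XX against CB XY. Over all 12 XX and XY lines it was -0.56 (SE 0.28, limma adjusted p = 0.244).

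*Tead4* was low where fibroblast RNA was high. Over 14 lines its log2 value correlated with the mean of 25 fibroblast genes at r = -0.793 (permutation test, two-sided p = 0.00068, adjusted p = 0.00544) and rho = -0.837 (permutation p = 0.00043, adjusted p = 0.00376), and r was -0.631 without the 2 lines most distant from the median and -0.837 for deviations from group means. Of the fibroblast list, 17 of 25 genes were called higher in BC XX than in BC XY, against 4.46% of all genes, and the summed value of all 25 was 110909 to 216503 in BC XX, 16592 to 36717 in BC XY, 29462 to 30978 in BC XO, 15372 to 43055 in CB XX and 11784 to 36263 in CB XY lines. With the fibroblast level as a covariate, the log2 difference of *Tead4* was 0.81 (limma adjusted p = 0.536) for BC XX against BC XY and 0.11 (limma adjusted p = 0.932) for BC XX against BC XO. Fibroblast levels of BC XX lines did not overlap those of BC XY or BC XO lines. The covariate and the group therefore cannot be told apart there, and the turned direction decides nothing. In bulk RNA, fewer cells of a type and less RNA per cell cannot be told apart. The genes most like *Tead4* in pattern were *Myo10* (r = 0.969), *Rhobtb2* (r = 0.933) and *Ccdc57* (r = 0.927).

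Chromosome 6 carries both *Tead4* and *Gata2*, and its genes as a whole were unequal between lines. The median level of 506 chromosome 6 genes, relative to the mean of the lines, was 1.20 in CB XX 1, 1.26 in CB XY 2 and 1.21 in CB XY 3, 1.08 in BC XX 2 and 0.894 to 0.969 in the other 10 lines. The 3 lines at 1.20 or more were among the 4 lines with the highest values of *Tead4*. With the median of each chromosome removed, a choice made after seeing the data, the log2 difference of *Tead4* between all XX and XY lines was -0.55 (limma adjusted p = 0.186). That of CB XX against CB XY was -0.39 (limma adjusted p = 0.479) and that of BC XY against CB XY was -0.37 (limma adjusted p = 0.480). Differences within BC grew in size, to -0.72 (limma adjusted p = 0.130) for BC XX against BC XY and -1.115 (limma adjusted p = 0.0551) for BC XX against BC XO. That of BC XX against CB XX was -0.71 (limma adjusted p = 0.111). When CB XY 2 and CB XY 3 were left out, *Tead4* in CB XX against CB XY was 0.12 (limma adjusted p = 0.937), the opposite direction, and in BC XY against CB XY it moved from -0.58 (SE 0.32, limma adjusted p = 0.351) to 0.031. With the fibroblast level as a covariate *Tead4* was called in BC XY against CB XY (-0.82, limma adjusted p = 0.0371). In that setting 1104 of 16261 genes were called, against 104 without the covariate. With the same covariate *Tead4* in BC XX against CB XX went from -0.72 (SE 0.32, limma adjusted p = 0.173) to 0.33 (limma adjusted p = 0.794).

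**Figure D3:**
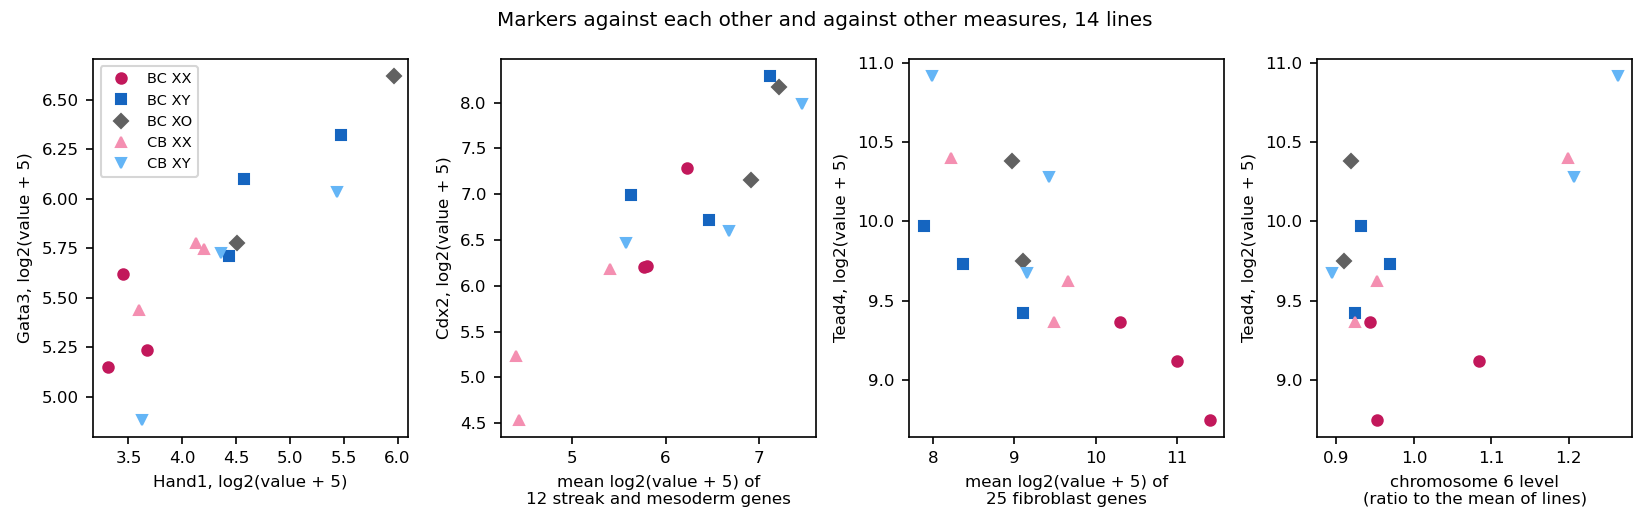
Markers in 14 ES cell lines on the scale log2(value + 5), with *Gata3* against *Hand1*, *Cdx2* against the mean of 12 streak and mesoderm genes, and *Tead4* against the mean of 25 fibroblast genes and against the chromosome 6 level. *Cdx2* climbs with the streak genes, and the 3 BC XX lines lie at the high fibroblast and low *Tead4* end.

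The Hippo genes that control *Tead4* activity were well represented in these cells. All 17 genes of the list were tested, and none was called between XX and XY lines, either pooled or within the BC or the CB cross. *Yap1*, the coactivator bound by *Tead4*, had values from 4070 to 8548. Between the XX lines of the crosses 2 of 17 were called against 7.15% of all genes, namely the X-linked scaffold gene *Amot*, which was higher in BC XX than in CB XX by 2.92 on the log2 scale (SE 0.50, limma adjusted p = 0.00659), and its relative *Amotl1*, higher by 0.84 (SE 0.23, limma adjusted p = 0.0454). *Amotl1* did not keep its call without CB XY 2 and CB XY 3 in the model. Summed fibroblast values were also higher in BC XX (110909 to 216503) than in CB XX lines (15372 to 43055).

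*Gata3*, which acts beside *Cdx2* downstream of *Tead4*, lies on the minus strand at chr2:9778705-9811661 (mm9) and overlaps 3 other annotated genes, which matters if strand was not used in counting. Its values were 32.7, 30.5 and 44.2 in the BC XX lines, 63.7, 47.4 and 75.0 in the BC XY lines, and 93.3 and 49.8 in the BC XO lines. The CB XX lines had 38.4, 48.7 and 49.8 and the CB XY lines 60.6, 24.6 and 48.03. The BC XX lines were below the BC XY and BC XO lines without overlap, and the CB XY lines spanned the CB XX lines on both sides. The log2 difference was -0.71 (SE 0.33, limma adjusted p = 0.216) for BC XX against BC XY, -0.86 (SE 0.37, limma adjusted p = 0.175) for BC XX against BC XO, and 0.10 (SE 0.33, limma adjusted p = 0.903) for CB XX against CB XY. The last became -0.38 (limma adjusted p = 0.756) without CB XY 2 and CB XY 3. With the fibroblast level as a covariate *Gata3* in BC XX against BC XY was -1.45 (limma adjusted p = 0.429). Over the 12 XX and XY lines its difference was -0.30 (SE 0.24, limma adjusted p = 0.478).

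*Hand1*, a bHLH factor of giant cells and of extraembryonic mesoderm, lies on the minus strand at chr11:57642207-57646320 (mm9). Its values were 7.74, 4.88 and 5.89 in the BC XX lines, 18.7, 16.6 and 39.5 in the BC XY lines, and 57.4 and 17.8 in the BC XO lines. The CB XX lines had 7.11, 13.4 and 12.4 and the CB XY lines 38.4, 7.37 and 15.6. All BC XX lines were below all BC XY and BC XO lines, and the CB groups overlapped through CB XY 2. These values rest on few reads, from 3 in CB XY 2 to 72 in BC XO 1. The log2 difference was -1.35 (SE 0.46, limma adjusted p = 0.102) for BC XX against BC XY, -1.76 (SE 0.52, limma adjusted p = 0.0648) for BC XX against BC XO and -0.50 (SE 0.46, limma adjusted p = 0.601) for CB XX against CB XY. The last was -1.46 (limma adjusted p = 0.298) without CB XY 2 and CB XY 3. With the fibroblast level as a covariate *Hand1* in BC XX against BC XY was -1.82 (limma adjusted p = 0.534). With quantile normalization *Hand1* was called in BC XX against BC XO (-1.95, limma adjusted p = 0.0365), where 850 of 16261 genes were called. Without that normalization, the difference ranged from -2.49 to -1.04 with each line left out in turn.

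*Hand1* and *Gata3* had the closest relation of the 28 marker pairs. Pearson r over 14 lines was 0.894 (two-sided permutation p = 2e-05, adjusted p = 0.00056) and Spearman rho was 0.899 (permutation p = 5e-05, adjusted p = 0.0014). It was 0.786 without the 2 lines most distant from the median *Hand1* value and 0.889 for deviations from group means. BC XO 1 had the highest value of both genes, and CB XY 2, the line with the fewest reads, had the lowest value of *Gata3*. *Gata3* was the second gene most like *Hand1* after *Kcnmb4* (r = 0.909), followed by *Tchh* (r = 0.888), and *Hand1* was the first for *Gata3*, with *Kcnmb4* (r = 0.856) also among the most alike.

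*Gata2*, a GATA factor of giant cells and blood progenitors, lies on the plus strand at chr6:88143885-88157024 (mm9). Its values were 87.5, 109.5 and 115 in the BC XX lines, 102, 108 and 295 in the BC XY lines, and 288 and 122 in the BC XO lines. The CB XX lines had 158, 173 and 119 and the CB XY lines 178, 278 and 162. A single BC XY line, BC XY 3, set the high end of its group, and the BC XX lines were below both BC XO lines and all CB XX lines, the latter a pattern of 12.6% of genes. The log2 difference was -0.51 (SE 0.40, limma adjusted p = 0.478) for BC XX against BC XY, -0.42 (SE 0.40, limma adjusted p = 0.607) for CB XX against CB XY and -0.83 (SE 0.44, limma adjusted p = 0.272) for BC XX against BC XO. The second was -0.25 (limma adjusted p = 0.900) without CB XY 2 and CB XY 3, and with the fibroblast level as a covariate the first was 0.40 (limma adjusted p = 0.911). None of these passed the threshold. Over the 12 XX and XY lines *Gata2* gave -0.46 (SE 0.28, limma adjusted p = 0.337). BC XX against CB XX gave -0.50 (SE 0.40, limma adjusted p = 0.446).

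*Gata2* and *Tead4*, both on chromosome 6, were related over the 14 lines at r = 0.727 (permutation test, two-sided p = 0.00298, adjusted p = 0.0417), but Spearman rho of 0.653 did not pass adjustment (permutation p = 0.0132, adjusted p = 0.123). Without the 2 lines most distant from the median *Tead4* value r was 0.674, and it was 0.532 for deviations from group means. The part of the chromosome 6 level in this relation was not tested. *Nat14* (r = 0.918), *Spef1* (r = 0.912) and *Aipl1* (r = 0.895) were most like *Gata2*.

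**Figure D4:**
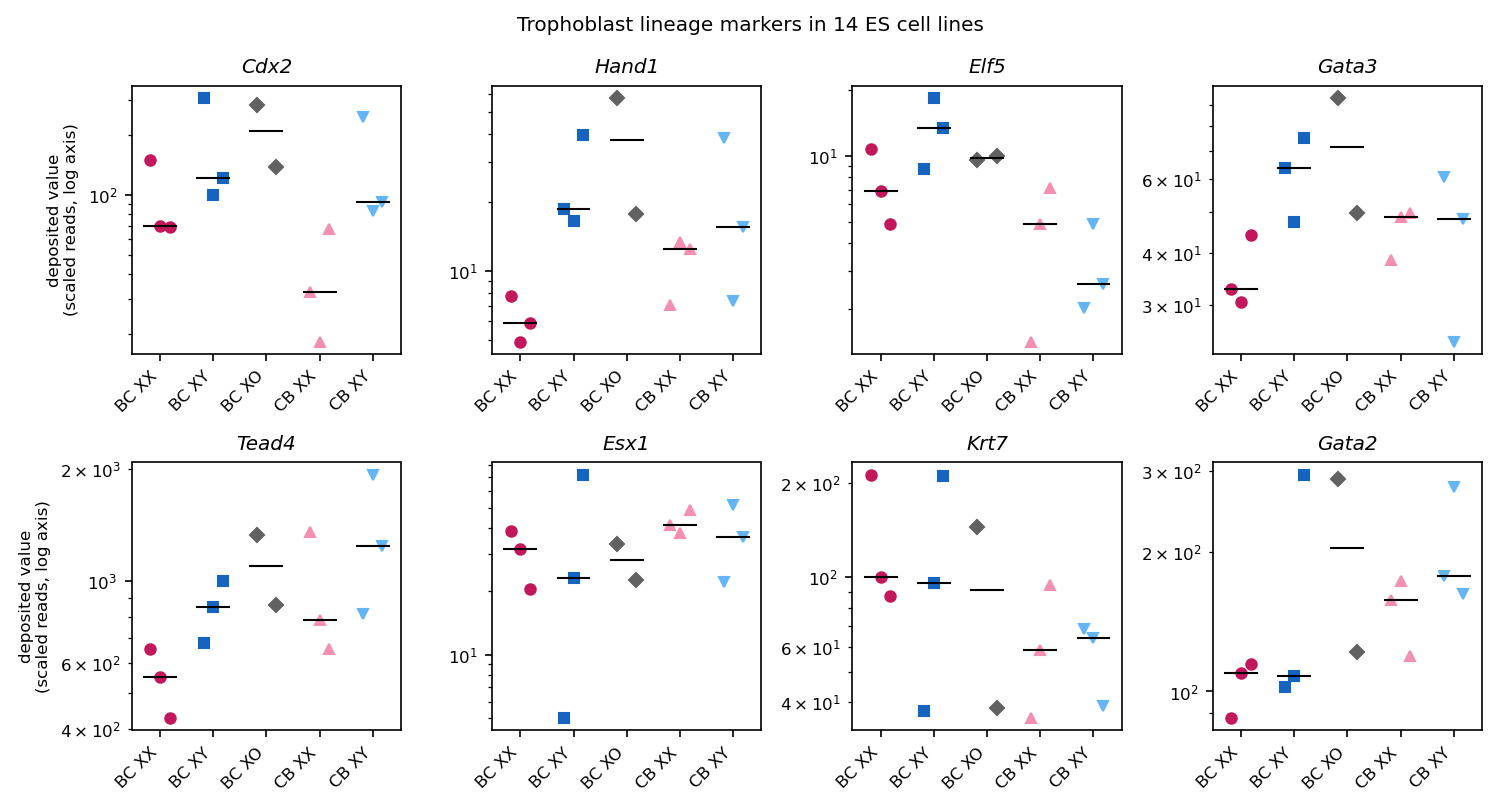
Deposited value (scaled reads, log axis) of each of the 8 markers in the 14 ES cell lines, 1 point per line by group, with a bar at the group median. For *Hand1*, *Gata3* and *Tead4* the 3 BC XX points lie below all BC XY and BC XO points, and for *Esx1* and *Krt7* the groups overlap widely.

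*Elf5*, the ETS factor that maintains trophoblast stem cells and is known to be methylated at its promoter in ES cells, lies on the plus strand at chr2:103251845-103291146 (mm9). Its values were 10.7, 6.92 and 4.91 in the BC XX lines, 8.74, 18.3 and 13.4 in the BC XY lines, and 9.57 and 9.96 in the BC XO lines. The CB XX lines had 1.42, 4.87 and 7.11 and the CB XY lines 2.02, 4.91 and 2.60. Taking a step as 1 read, at most 22 reads stood behind any of these values, and 4 lines, CB XX 1 and the 3 CB XY lines, had 3 reads or fewer, so that *Elf5* was not detectable there at this depth. It did not pass the filter for XX against XY lines, where an exact permutation test within each cross gave a log2 difference of -0.19 (two-sided p = 0.445, smallest possible 0.005). It was -0.43 (exact permutation p = 0.237, smallest possible 0.025) without CB XY 2 and CB XY 3.

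The XY lines of the crosses were also compared for *Elf5*, where the CB XY values rest on only 1 or 2 reads each. Its values of 10 or more were in BC XX 1, BC XY 2 and BC XY 3, so it passed the filter of the 5-group model only with the BC XY lines. The comparison of BC XY with CB XY lines is therefore not independent of that filter. Every BC XY line was above every CB XY line for 1 of 8 markers, *Elf5*, against 12.9% of genes. The log2 difference was 1.16 (SE 0.31, limma adjusted p = 0.0854), and 1.36 with CB XY 1 as the only CB XY line. No marker was called in BC XY against CB XY, where 0.640% of genes were, and *Elf5* alone had an unadjusted p under 0.05, as 18.7% of genes had. Within crosses the log2 differences were -0.55 (SE 0.31, limma adjusted p = 0.309) for BC XX against BC XY, 0.18 (SE 0.31, limma adjusted p = 0.804) for CB XX against CB XY (0.38 without CB XY 2 and CB XY 3) and -0.26 (SE 0.35, limma adjusted p = 0.690) for BC XX against BC XO. *Nwd1* (r = 0.948), *Copz1* (r = 0.892) and *Zfp664* (r = 0.876) were most like it.

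*Esx1*, an X-linked homeobox gene of the labyrinth, lies on the minus strand at chrX:133649936-133656622 (mm9). Its values were 38.7, 31.8 and 20.6 in the BC XX lines, 5.00, 23.3 and 71.6 in the BC XY lines, 33.5 and 22.8 in the BC XO lines, 41.2, 37.8 and 48.9 in the CB XX lines and 22.2, 51.6 and 36.3 in the CB XY lines. The BC XY lines alone held both the lowest and the highest value, and no pair of groups compared by sex was separate. The lowest value, in BC XY 1, rests on 4 reads. The X chromosome as a whole, by the median of 402 genes, stood at 1.21 to 1.43 in XX lines and at 0.717 to 0.901 in the other lines. *Esx1* differed by 0.28 on the log2 scale between XX and XY lines (SE 0.40, 95% interval -0.58 to 1.14, limma adjusted p = 0.710), and by -0.37 (limma adjusted p = 0.640) once the median of each chromosome had been removed. Its log2 differences were 0.31, 0.25 and 0.08 within BC, within CB and for BC XX against BC XO, with limma adjusted p of 0.776, 0.850 and 0.955. Without the line BC XY 1 the first was -0.43, and without CB XY 2 and CB XY 3 the second was 0.80. The most similar patterns were those of *8430427H17Rik* (r = 0.907), *Scn8a* (r = 0.891) and *Ifi30* (r = 0.890).

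*Krt7* lies on the plus strand at chr15:101241474-101260744 (mm9). Its values were 212, 101 and 87.4 in the BC XX lines, 37.5, 95.6 and 211 in the BC XY lines, 144 and 38.4 in the BC XO lines, 35.5, 58.5 and 94.2 in the CB XX lines and 68.7, 63.9 and 38.9 in the CB XY lines. High and low lines occurred in both BC XX and BC XY, and the groups overlapped in each comparison by sex. The log2 difference was 0.23 (SE 0.43, 95% interval -0.69 to 1.15, limma adjusted p = 0.780) over the 12 XX and XY lines, 0.40 (limma adjusted p = 0.723) within BC, 0.07 (limma adjusted p = 0.970) within CB (-0.22 without CB XY 2 and CB XY 3) and 0.67 (limma adjusted p = 0.566) for BC XX against BC XO. *Afap1l2* (r = 0.907), *D10Bwg1379e* (r = 0.877) and *Galns* (r = 0.858) were most like it.

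Of 12 other trophoblast regulators, 11 were tested between XX and XY lines and none was called, against 5.21% of all genes. None of 12 was called within BC or within CB, against 5.70% and 3.57%. The highest of them, with the widest signal in ES cells, were *Bmpr1a* (1846 to 5401), a BMP receptor, *Klf5* (969 to 4521), *Tfap2c* (1007 to 2866), a partner of *Cdx2* in trophectoderm, and *Fgfr2* (1289 to 2540), the receptor for the FGF signal that sustains trophoblast stem cells. When CB XY 2 and CB XY 3 were omitted, *Eomes*, a T-box factor of trophoblast and of the streak, was the only one called lower in XX than in XY lines. *Eomes* had values of 247 to 939 in XX lines against 413 to 1876 in XY lines, with a log2 difference of -1.08 (SE 0.35, limma adjusted p = 0.0919) over all 12. Between BC XX and CB XX lines, *Tfap2c* was the only one of the 12 called, against 7.15% of all genes, at -0.90 (SE 0.24, limma adjusted p = 0.0420), and without CB XY 2 and CB XY 3 in the model its adjusted p by limma was 0.0647.

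Genes of differentiated trophoblast spanned a wide range of levels. Of 20 listed, 10 had a value under 10 in every line, while the highest, *Peg10*, had values of 7248 to 27391. Between XX and XY lines 7 were tested. *Phlda2*, an imprinted gene that restrains placental growth, was the only one of the 7 called, against 5.21% of all genes. Its values were 87.4 to 223 in XX lines and 488 to 945 in XY lines, with no overlap, and the log2 difference was -1.99 (SE 0.22, limma adjusted p = 0.000705). It was also lower in BC XX than in the BC XO lines, which had 817 and 671, by a log2 difference of -2.50 (SE 0.29, limma adjusted p = 0.00261). *Phlda2* remained the only one called in that list without CB XY 2 and CB XY 3. Within CB 2 of 9 genes tested in this list were called, *Phlda2* and *Plac8*, against 3.57% of all genes. *Plac8*, a gene first known from placenta, differed there by -1.86 (SE 0.38, limma adjusted p = 0.0170). Its values were 49.96 to 125 in the CB XX lines and 172, 439.6 and 478 in the CB XY lines. Against CB XY 1 alone *Plac8* differed by -0.94. Within BC it differed by -0.36 (limma adjusted p = 0.609) and was not called, which does not by itself show a difference between the crosses.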

How the data were processed

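The authors made stranded libraries of total RNA from 14 ES cell lines, sequenced them single end, mapped the reads to mm9 by TopHat2 and compared genes with Cuffdiff. Whether counting used strand is not given in the sources used here, and lines are not assigned to library batches there, so batches were not modelled. For each gene and line the authors deposited a signal in reads after scaling to the same depth (sums of 28150946 to 30657803 per line). A step was called whole within 0.02 below 200 steps, and totals in steps ranged from 11904424 to 69646376. At such depths values of 3 steps or fewer were taken as not distinguishable from 0, with counting error only.

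Samples were grouped by their labels. The 3 CB XX columns match the group but not single lines and were numbered by column. Markers and lists were chosen with earlier results of these data known. Values were used as log2(value + 5), which understates the change of low genes. Genes with 10 or more in at least 6 of 12 lines were tested for XX against XY, and in at least 2 of 14 lines for the model of 5 groups, with limma 3.58.1 (trended variance, R 4.3.3) and Benjamini-Hochberg adjustment over all genes at 0.05. Left out were 15 genes at 0 in a whole group and high elsewhere. *Elf5* and correlations had two-sided permutation tests (Python 3.11.15). Fold changes are first group minus second. Levels per kilobase used the longest coding transcript of the mm9 annotation. The fit was tested on simulated data. Alternatives were the pseudocounts 1 and 20, no filter, TMM and quantile scaling, lines left out, the cross or fibroblast level as a covariate, only the groups compared, the replicate number as a block, and, chosen after seeing the data, removal of chromosome medians. Named were all markers, up to 4 genes per list (those called, largest first, otherwise the highest), and the 3 genes most like each marker, of which 1 is not reported here. *Eomes* was named after its values were seen, for a call under an alternative.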

Additional observations from a re-analysis of the deposited data

How the results depend on the processing

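Of 830 alternatives for 36 marker results, 797 kept direction and side of the threshold, 4 moved past the threshold and 29 turned direction, and of 188 alternatives for 9 summary results 184 were kept. The count of markers called was 0 in each comparison as reported. It was 1 for XX against XY without CB XY 2 and CB XY 3 together, and 0 to 1 with each line left out. It was 1 (*Hand1*) for BC XX against BC XO with quantile normalization, where 850 of 16261 genes were called. It was 1 (*Tead4*) for BC XY against CB XY with the fibroblast level as a covariate, where 1104 of 16261 genes were called. Directions turned as follows. Without CB XY 2 and CB XY 3, *Krt7* gave -0.0080 for XX against XY, *Gata3* -0.38, *Tead4* 0.12 and *Krt7* -0.22 for CB XX against CB XY, and *Tead4* 0.031 for BC XY against CB XY. With the fibroblast level as a covariate, *Tead4* gave 0.019 for XX against XY, 0.81 for BC XX against BC XY, 0.11 for BC XX against BC XO and 0.33 for BC XX against CB XX, and *Gata2* 0.40 for BC XX against BC XY and 0.16 for BC XX against CB XX. With chromosome medians removed, *Esx1* gave -0.37 for XX against XY, -0.26 within BC, -0.48 within CB and -0.54 for BC XX against BC XO. *Esx1* in BC XX against BC XO gave -0.055 with quantile normalization and -0.10 with the replicate block. With each line left out, XX against XY ranged from -0.070 to 0.52 for *Esx1* and from -0.021 to 0.53 for *Krt7*. BC XX against BC XY ranged from -0.43 to 1.04 for *Esx1* and from -0.20 to 0.98 for *Krt7*. CB XX against CB XY ranged from -0.022 to 0.44 for *Elf5*, from -0.23 to 0.35 for *Gata3*, from -0.029 to 0.50 for *Esx1* and from -0.26 to 0.39 for *Krt7*. BC XX against BC XO ranged from -0.16 to 0.31 for *Esx1* and from -0.22 to 1.57 for *Krt7*. The cause of these turns was not tested. For comparisons with BC XX the fibroblast covariate cannot be separated from the group.

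Over all alternatives the limma adjusted p of *Hand1* for XX against XY ranged from 0.0477 to 0.356 and that of *Cdx2* from 0.0564 (cross as a covariate) to 0.224. Calls over all genes moved by more than 1.5 times in each comparison, from 313 (without CB XY 2 and CB XY 3) to 1746 (without CB XX 1) against 797 for XX against XY, from 8 (fibroblast covariate) to 1144 (without CB XX 1) against 927 within BC, from 133 (without CB XY 2 and CB XY 3) to 754 (fibroblast covariate) against 581 within CB, and from 5 (without BC XO 1) to 1093 (without CB XX 1) against 758 for BC XX against BC XO. They ran from 0 to 4 against 1 for BC XO against BC XY, from 2 to 1104 against 104 for BC XY against CB XY, from 45 to 2576 against 1162 for BC XX against CB XX, and from 0 to 25 against 12 for the interaction.

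A replicate block could be fitted for 4 comparisons of numbered lines and called 0 markers in each. Of all genes it called 1129 within BC, 332 for BC XX against BC XO, 1 for BC XO against BC XY and 368 for BC XY against CB XY. Deviations of 15 same-numbered pairs correlated at -0.494 to 0.270, with 4 over 0.1. Deviations from the mean of so few lines are tied to each other. These values therefore cannot tell whether lines of the same number share a batch. The planned test for read counts was not run, because the deposited values are scaled and did not come out as whole steps for every gene. Depth limits *Elf5* and *Hand1* most, with down to 1 and 3 reads in a line.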
